A study of Mus musculus with 3 samples.

Results

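H3K27me3 at CpG islands of the colonic epithelium was compared between DSS-treated and untreated mice of the same age. The comparison holds 2 of the 3 arrays of the series, chosen by their labels. The array of untreated mice aged 23 weeks and the array of mice of that age given DSS were each made from crypts pooled from 3 male BALB/c mice. The treated mice had received 2% DSS (dextran sulfate sodium, which injures the lining of the colon and causes colitis) for 1 week at the age of 7 weeks. The remaining array, from a pool of 3 untreated mice aged 7 weeks, lies outside the comparison and is given beside it. The red channel (Cy5) held the chromatin precipitated with an antibody against H3K27me3 and the green channel (Cy3) the whole-cell extract, called input here.

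H3K27me3 is set by the methyltransferase of Polycomb repressive complex PRC2, EZH2 or EZH1, and is bound by the complex PRC1. CpG islands are the main sites where PRC2 is recruited in mammals, above all at silent genes of developmental regulators. In the adult intestine PRC2 takes part in keeping genes of other lineages silent while crypt cells divide and differentiate.

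No group had a replicate, so no p-value is given and no difference has a replicate check. The 3 arrays came from 3 slides scanned on 3 days, so that treatment cannot be told apart from slide or scan. The median background-subtracted intensity of the arrays lay between 120 and 475 in the immunoprecipitate and between 217 and 537 in the input, and the untreated 23-week array was the dimmest in both. The spread of the log2 ratio also differed, with an interquartile range of 2.55 on the untreated 23-week array against 1.56 after DSS (1.98 at 7 weeks). Ranks within an array, which such a difference in range does not move, are therefore used below. A percentile of 90 means that 90% of the array's kept probes had a lower ratio of immunoprecipitate over input. Differences are DSS minus untreated in percentile points, and ± is the SD over the probes of an island within 1 hybridisation. The probe positions come from the array files, which name no genome build, and give no gene for a probe. Islands are therefore named by chromosome and position, and markers of the epithelium were not checked.

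The order of islands by H3K27me3 was largely shared by the arrays. Across 93902 autosomal probes, which share their arrays and are not independent, Spearman's rho of the ratio was 0.940 between DSS and untreated mice at 23 weeks. It was 0.955 between the untreated arrays of 7 and 23 weeks and also 0.955 between DSS and 7 weeks. Over 13701 islands of at least 3 probes (median 6 probes and 663 bp) the median difference after DSS was -0.11 points, and 90% of islands lay between -10.2 and 8.20 points (percentiles 5 and 95). The median SD of that difference over the probes of an island was 7.79 points.

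A small set of islands left this order after DSS. An island was called lower when its difference was -20 points or below, at least 80% of its probes were lower, and it stood at or above percentile 75 in the untreated 23-week pool. It was called higher when the difference was at least 20 points, at least 80% of its probes were higher, and it stood at or above percentile 75 after DSS. By this rule 27 islands (0.197% of those tested) were lower after DSS and 13 (0.0949%) were higher. When loess was fitted within each array before ranking, the split turned to 13 lower and 23 higher, and 5 of the 27 and 7 of the 13 were called again. The same rule gave 1 lower (0.0073%) and 3 higher (0.0219%) for untreated mice at 23 against 7 weeks, and 29 lower (0.212%) and 16 higher (0.117%) for DSS against untreated mice at 7 weeks. These 3 comparisons share arrays with each other. At the threshold itself, the last island called lower differed by -20.2 points and the next by -19.9, while the last called higher differed by 20.2 and the next by 19.4.

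**Figure D1:**
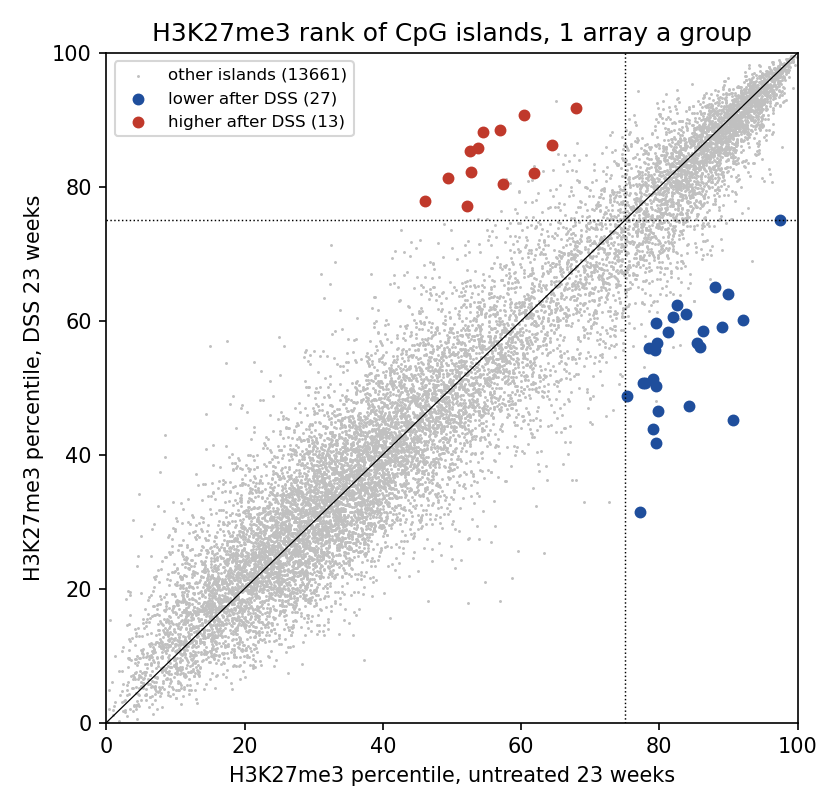
H3K27me3 percentile of each CpG island (1 point per island) in the untreated 23-week pool (x axis) and after DSS (y axis), with the diagonal of no difference and dotted lines at percentile 75. The 27 islands called lower lie below the diagonal at right and the 13 called higher above it, apart from the band that holds most islands.

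The islands that fell were marked in the untreated 23-week pool, as the rule requires, and 21 of the 27 also at 7 weeks. Their level ranged from 75.3 to 97.5 in the untreated 23-week pool (median 81.3), from 31.4 to 74.99 after DSS (median 56.0) and from 53.9 to 95.9 at 7 weeks (median 81.5). All 27 were below percentile 75 after DSS and 7 of them below 50. Their differences ran from -45.6 to -20.2 points with a median of -26.1. In 21 of the 27 every probe was lower, which the rule forces in islands of 3 or 4 probes. The share of all islands whose probes all moved the same way was not counted. They held 178 probes, and the immunoprecipitate was too dim to stand well above background at 2 of these in the DSS pool and at none in the untreated pools.

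The largest fall of all islands tested lay on chromosome 5 from 147584860 to 147585285. Its level was 90.9 ± 3.5 at 7 weeks, 90.7 ± 3.3 in the untreated 23-week pool and 45.2 ± 14.3 after DSS, a difference of -45.6 ± 15.3 points over 5 probes. The probes, in order along the island, stood at 90.7, 86.9, 90.8, 87.8 and 95.3 in the untreated 23-week pool and at 35.3, 40.4, 45.2, 72.4 and 49.7 after DSS. No probe of the DSS array reached the lowest untreated value, and the smallest gap, at the probe 311 bp into the island, was 15.4 points. How many of all islands show such a gap was not counted. Relative to each array's median probe, its log2 immunoprecipitate was 3.08 in the untreated 23-week pool and -0.02 after DSS, while its log2 input was 0.40 and 0.27.

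A neighbour 3772 bp away, from 147580464 to 147581088, fell as well. It had 93.4 ± 17.6 at 7 weeks, 84.3 ± 8.9 in the untreated 23-week pool and 47.3 ± 15.96 after DSS, with a difference of -37.0 ± 23.9 points. The fall was uneven along this island. The inner probes differed by -37.0, -51.3 and -55.5 points and the outermost by -6.8 and -5.4. A further island of this stretch, 29440 bp away and below percentile 75 in every pool, went from 51.7 to 37.4, a difference of -15.9 ± 10.4 points.

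The second largest fall was also on chromosome 5, from 44388787 to 44389704, with 80.6 ± 10.9 at 7 weeks, 77.2 ± 6.4 in the untreated 23-week pool and 31.4 ± 18.7 after DSS. Its 7 probes were all lower. The probe 581 bp into the island differed by -2.3 points and the others by -60.2 to -33.5. Chromosome 5 held 6 of the 27 islands among its 940 islands tested (0.638%), and chromosome 14 held 4 among 457 (0.875%). The share of all islands was 0.197%. Chromosomes 3, 8, 9 and 18 held none among 611, 808, 771 and 390. These counts are small and were not tested, and those on chromosome 5 include the neighbours described above.

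On chromosome 11 an island from 102896187 to 102896708 fell evenly. Its 5 probes stood between 89.0 and 95.5 in the untreated 23-week pool, between 91.9 and 97.8 at 7 weeks, and between 55.1 and 68.7 after DSS. The probes of the DSS array thus lay below those of both untreated arrays. The island was chosen for its fall, and the share of all islands with such a separation was not counted. The difference of -30.3 ± 3.3 points had the least spread over probes among the 15 named falls other than that on chromosome 7 described below. Its log2 immunoprecipitate, relative to the array's median probe, was 2.35 at 7 weeks, 2.69 in the untreated 23-week pool and 0.38 after DSS, and its log2 input 0.29, 0.17 and 0.02.

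Some of the longer islands that fell held probes near their untreated level. On chromosome 6 from 52242929 to 52244433 the level was 77.2 ± 12.9 at 7 weeks, 79.0 ± 7.8 in the untreated 23-week pool and 51.4 ± 17.3 after DSS, a difference of -26.1 ± 12.7 points over 15 probes. The probes from 966 bp to its end differed by -34.3 to -22.6 points, and those between 578 and 819 bp by -9.96 to 0.80. Of the latter, the probe at 672 bp was the brightest of the island in both channels, with a log2 immunoprecipitate intensity of 14.3 after DSS. The probe at 819 bp had 9.4. Whether brightness goes with such differences was not tested. On chromosome 4 from 152325359 to 152327208 (81.5 ± 13.9, 85.9 ± 10.9 and 56.0 ± 15.4) 13 of 15 probes were lower. The largest fall there, -52.4 points, was at 1636 bp into the island, and the 2 probes that were higher, by 13.8 and 3.98 points, at 192 and 1383 bp.

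**Figure D2:**
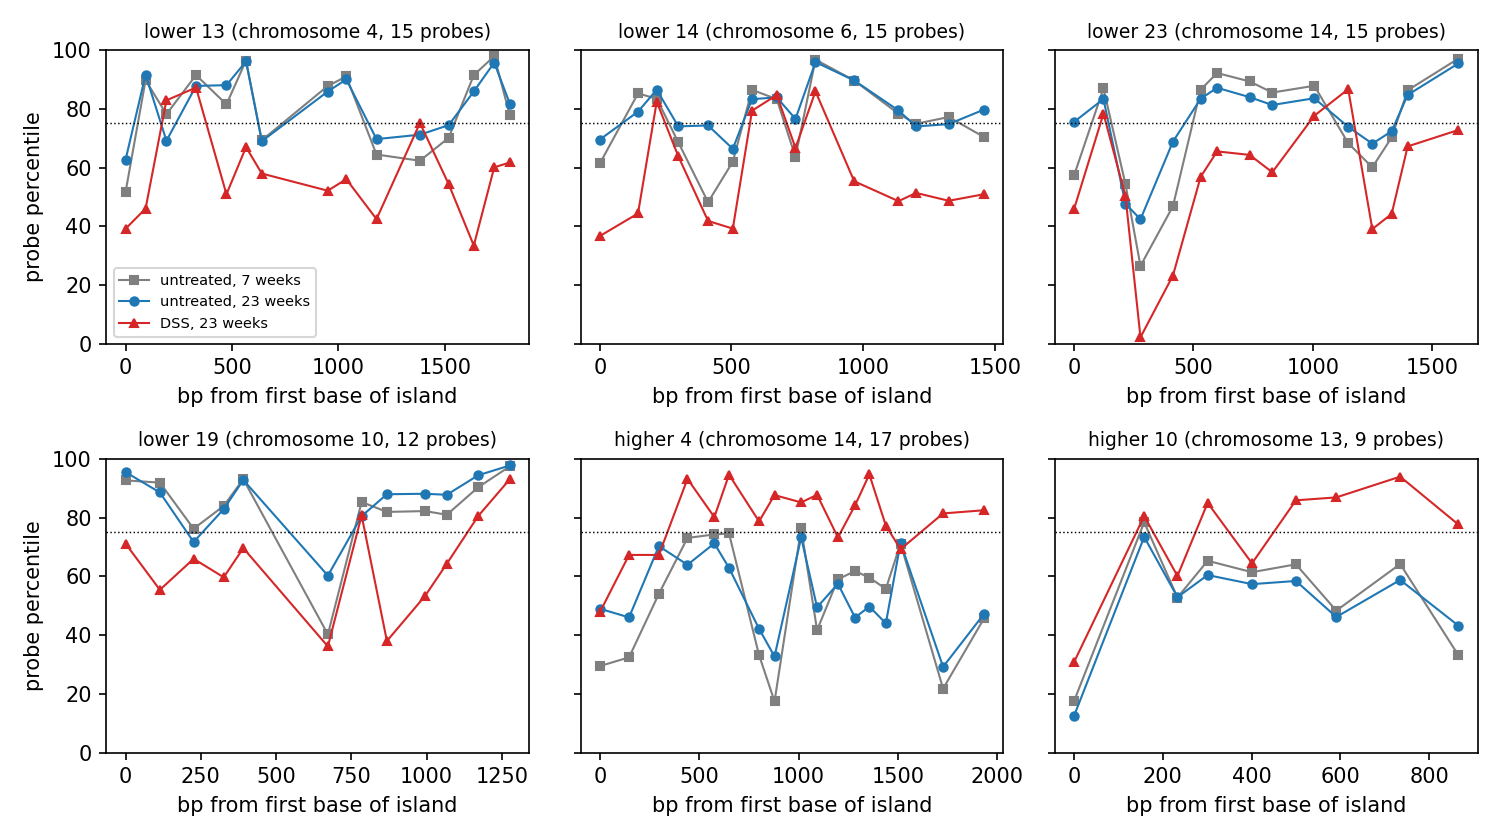
Percentile of each probe (y axis) against its distance in bp from the first base of the island (x axis) on the 3 arrays, for the 4 islands with most probes among those called lower and the 2 among those called higher. Each island is titled by its rank by size of difference. The DSS line leaves the 2 untreated lines over stretches of several probes and returns to them at others, as at the probe 784 bp into the island on chromosome 10. That probe was the brightest of its island in both channels. Its log2 intensity in the untreated 23-week and DSS pools was 14.5 and 14.5 in the immunoprecipitate and 12.9 and 13.5 in the input. Whether the differences of probes go with their brightness was not tested.

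A pair of islands on chromosome 10 lay 4327 bp apart and both fell. The island from 126573491 to 126574244 had 80.8 ± 11.2 at 7 weeks, 86.3 ± 8.7 in the untreated 23-week pool and 58.5 ± 18.8 after DSS, and all 8 probes were lower (-28.3 ± 11.7 points). The island from 126567844 to 126569164 had 84.6 ± 14.8, 88.0 ± 10.74 and 65.1 ± 16.9, with 11 of 12 probes lower (-23.3 ± 14.2). The 3 further islands within 30000 bp differed by -4.8, -1.4 and -3.4 points.

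Smaller islands and islands nearer the threshold completed the falls that the naming rule covers. The island on chromosome 6 from 53968958 to 53969985 had 8 probes, each lower after DSS (79.1 ± 7.9 to 43.8 ± 11.2, difference -30.4 ± 11.7). The island on chromosome 16 from 72545687 to 72546573 had 7, each lower (79.5 ± 3.9 to 50.2 ± 20.7, difference -29.6 ± 18.7). On chromosome 11 from 5801958 to 5802375 the difference was -25.5 ± 8.1 points, on chromosome 14 from 122761818 to 122762247 it was -23.7 ± 14.1, and on chromosome 1 from 75365736 to 75366141 it was -23.6 ± 6.2. The island on chromosome 17 from 67908719 to 67909390 differed by -29.1 ± 21.2 points, but of its 5 probes those 192 and 309 bp into the island differed by 3.23 and -0.19 points, and its immunoprecipitate rank moved by -0.056 points. The island on chromosome 7 from 11703535 to 11703902 had the lowest 7-week level of the 27. It stood at 53.9 ± 15.6 at that age, 77.6 ± 8.3 in the untreated 23-week pool and 50.8 ± 10.4 after DSS (-27.5 ± 2.3), so the untreated 23-week array was the high one of the 3.

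Islands that rose after DSS were fewer and came from the middle of the ranking. The 13 had levels from 46.2 to 67.9 in the untreated 23-week pool (median 54.4), from 77.1 to 91.8 after DSS (median 85.4) and from 32.0 to 82.6 at 7 weeks (median 59.8). In 10 of them every probe was higher, which the rule again forces in islands of 3 or 4 probes. Only 8 had 4 probes or more and so fell under the naming rule.

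The largest rise among the called islands lay on chromosome 4 from 53180805 to 53181379, with 53.7 ± 11.1 at 7 weeks, 54.4 ± 13.1 in the untreated 23-week pool and 88.3 ± 9.9 after DSS, a difference of 36.3 ± 20.7 points. Its probes, in order, stood at 72.3, 40.1, 62.7, 54.4 and 44.7 in the untreated 23-week pool and at 67.1, 86.0, 90.1, 90.7 and 88.3 after DSS. The first probe was thus not higher after DSS, and the other 4 exceeded every untreated value. How many of all islands show this was not counted. Relative to the array's median probe, the log2 immunoprecipitate was -0.95 at 7 weeks, 0.04 in the untreated 23-week pool and 0.58 after DSS, and the log2 input was -0.88, -0.30 and -0.66.

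The longest island that rose, on chromosome 14 from 57029021 to 57030998, had 17 probes. It stood at 55.7 ± 19.6 at 7 weeks, 49.5 ± 13.6 in the untreated 23-week pool and 81.4 ± 12.0 after DSS (31.7 ± 18.5). There 14 probes were higher, by up to 54.9 points, and 3 were lower. On chromosome 13 from 60611411 to 60612321 all 9 probes were higher (24.6 ± 13.2 points), with levels of 61.4, 57.3 and 80.5 in the same order of pools. On chromosome 14 from 54807927 to 54808453 all 5 were higher (21.9 ± 9.7), with levels of 67.9, 67.9 and 91.8. The other 3 named rises were on chromosome 12 from 14177298 to 14177881 (52.2 ± 14.3 to 77.1 ± 23.5) and from 8999743 to 9000335 (difference 22.2 ± 13.8 points), and on chromosome 11 from 105783910 to 105784496 (difference 20.2 ± 2.2).

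**Figure D3:**
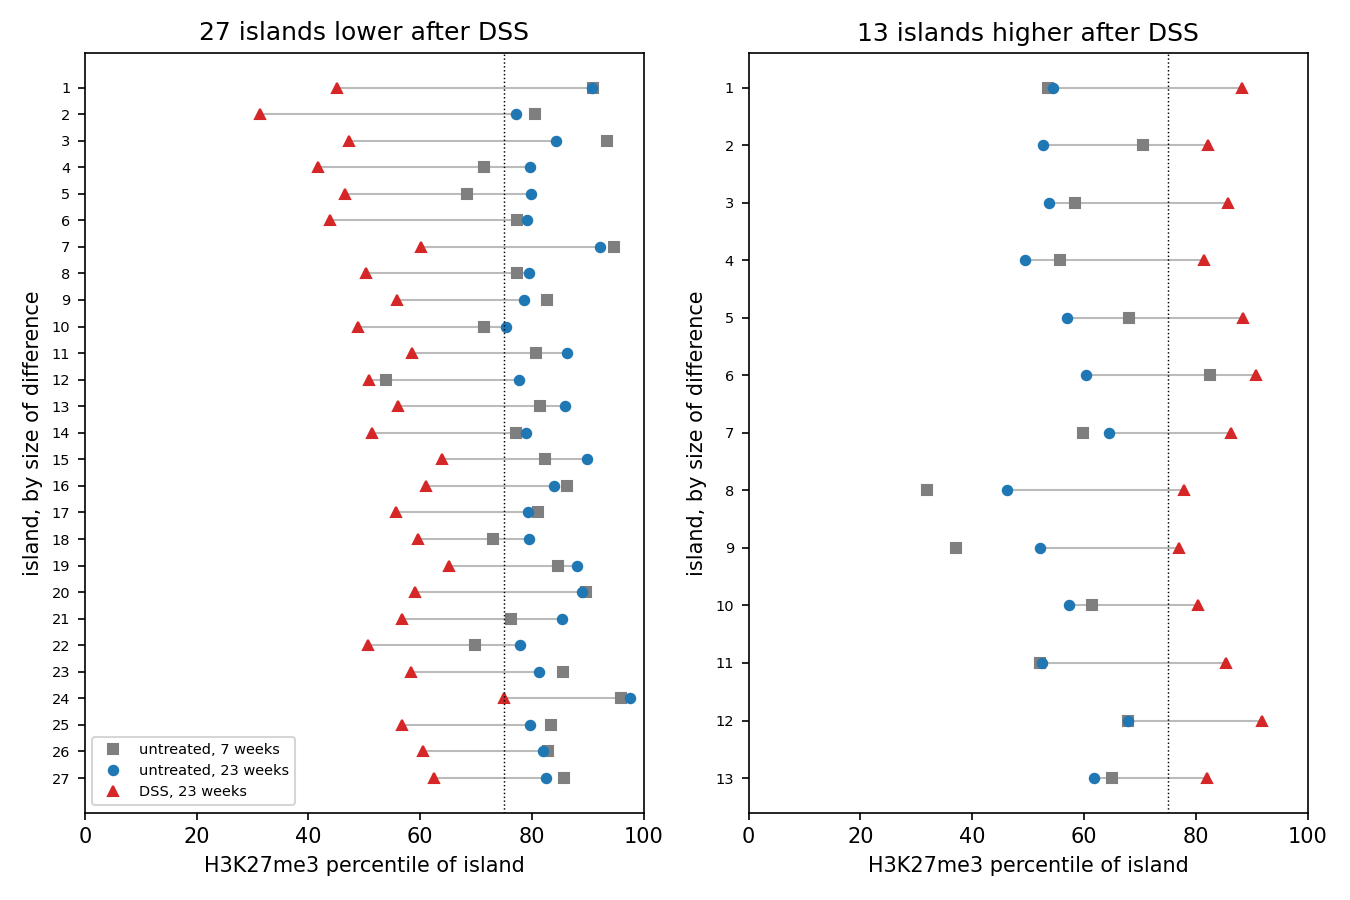
H3K27me3 percentile (x axis) of the 27 islands called lower and the 13 called higher, ordered by size of difference, with the array of each group as a point and the 2 compared arrays joined by a line. Squares (7 weeks) lie mostly near the circles (untreated, 23 weeks), with chromosome 7 (lower, number 12) and chromosome 2 (higher, numbers 2 and 6) among the exceptions.

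The pair of rising islands on chromosome 2 belonged to a longer stretch of 8 islands. Of the pair, the island from 74458432 to 74458925 had 3 probes, too few for the naming rule, and was chosen after its values were seen, as was the stretch. It had 70.5 ± 14.5 at 7 weeks, 52.7 ± 7.6 in the untreated 23-week pool and 82.2 ± 4.7 after DSS. The island from 74459810 to 74460750 had 82.6 ± 13.9, 60.4 ± 10.5 and 90.7 ± 4.0, and its difference was 30.6 ± 9.1 points with all 8 probes higher. In these islands the untreated 23-week array was the low one of the 3.

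The 8 islands of this stretch, from 74456371 to 74488872, were all higher after DSS, by 19.2, 35.1, 30.6, 18.3, 10.9, 7.6, 4.2 and 6.9 points in order. The difference was thus greatest at islands 2 and 3 and 4.2 to 7.6 points over the last 3. The 7-week array, at 72.5, 70.5, 82.6, 82.8, 89.9, 85.1, 78.4 and 92.6, was above the untreated 23-week array at all 8. The ranks of the immunoprecipitate rose by less than those of the ratio at all but the last island, by 0.27 to 8.5 points. At the last island the immunoprecipitate fell by 8.1 points and the input by 9.7, while the ratio rose by 6.9. Over the 8 islands the input moved by -9.7 to 9.8 points.

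**Figure D4:**
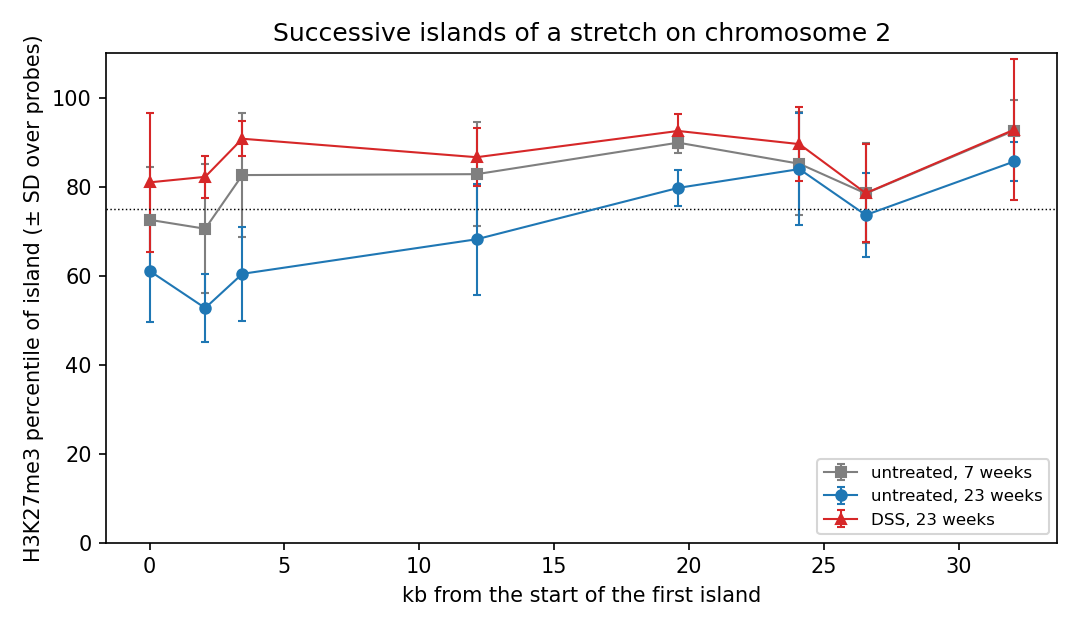
H3K27me3 percentile of 8 successive islands on chromosome 2 (y axis, bars are the SD over the probes of an island) against distance in kb from the start of the first (x axis) on the 3 arrays. The untreated 23-week array is lowest at all 8. Its level and that of the DSS array are 60.4 and 90.7 at island 3, and 85.6 and 92.8 at island 8.

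Most falls in the ratio came with a fall of at least 10 points in the immunoprecipitate, and 4 of the 13 rises with a rise of that size. Each channel was ranked within its array on its own. Over the 27 islands that fell, the immunoprecipitate rank differed by a median of -18.1 points (-31.2 to -0.056) and the input rank by -3.83 (-19.6 to 6.14). The 3001 islands with the highest level at 7 weeks had medians of -7.36 and -2.57, with -0.91 in the ratio. Part of the fall in the immunoprecipitate was thus shared by marked islands in general. The calls were made on the ratio, which contains the immunoprecipitate, so the 2 are not independent. In 21 of the 27 the immunoprecipitate fell by at least 10 points while the input moved by less than 10. The share of uncalled islands that met this condition was not counted. The other 6 of the 27 were the islands on chromosomes 17 and 7 described above and 4 outside the naming rule, singled out here for this reason. On chromosome 14 from 27345120 to 27345398, on chromosome 2 from 55252582 to 55252858 and on chromosome 5 from 135326499 to 135326931 the input fell as well, by 18.3, 19.6 and 12.0 points. On chromosome 5 from 85490674 to 85491118 the immunoprecipitate fell by 8.4 points and the input rose by 3.1.

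Over the 13 islands that rose, the immunoprecipitate rank was higher in all, by a median of 6.22 points (1.81 to 14.3), and the input rank lower in 11 (median -5.08). Only 4 met the same condition of a rise of at least 10 points in the immunoprecipitate and a move below 10 in the input. These lay on chromosome 4 at 53180805, on chromosome 14 at 57029021 and 54807927, and on chromosome 11 from 119026631 to 119027040. On chromosome 5 from 114832544 to 114832764, a rise of 32.0 points in the ratio went with 1.8 points in the immunoprecipitate and -25.4 in the input.

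**Figure D5:**
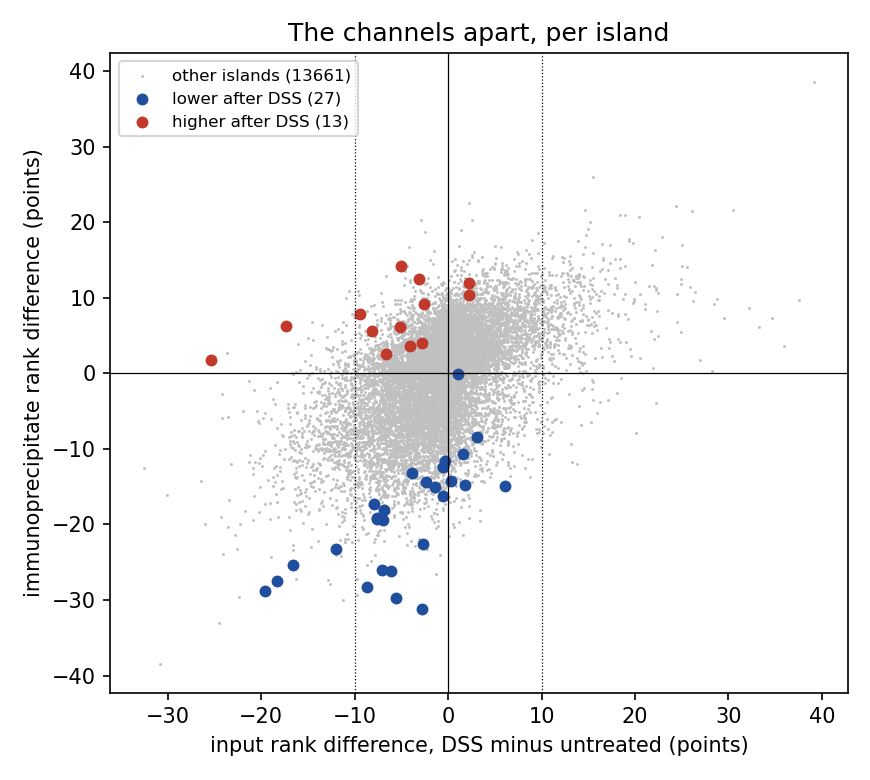
Difference in input rank (x axis) against difference in immunoprecipitate rank (y axis), DSS minus untreated at 23 weeks in percentile points, 1 point per island, with dotted lines at 10 points of input. Of the 27 islands called lower all lie below 0 in the immunoprecipitate and 23 lie between the dotted lines, and the 13 called higher lie above 0 at 1.81 to 14.3 points.

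The input differed most on the untreated 23-week array. Spearman's rho of the input over probes was 0.983 between DSS and untreated mice at 7 weeks, but 0.903 between DSS and untreated mice at 23 weeks and 0.907 between the untreated arrays. The input rank was lower by at least 20 points after DSS than in the untreated 23-week pool at 38 islands (0.277%) and higher at 46 (0.336%). No island (0%) reached 20 points either way between DSS and 7 weeks. Between the untreated arrays 45 were lower (0.328%) and 25 higher (0.182%) at 23 weeks. The immunoprecipitate rank was lower by at least 20 points after DSS than in the untreated 23-week pool at 76 islands (0.555%) and higher at 14 (0.102%). Against 7 weeks these counts were 11 (0.0803%) and 1 (0.0073%), and between the untreated arrays 3 were lower (0.0219%) and 4 higher (0.0292%) at 23 weeks.

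Where the input moved most, the ratio also moved more often than elsewhere, as a count without a test. The 84 islands whose input rank moved by at least 20 points had a median of 3 probes, against 6 over all islands. The comparison was not matched for this. Among the 84, the ratio rank moved by a median of 5.06 points in size, against 2.75 over all islands. It moved by at least 10 points in 24 (28.6%, against 8.12% of all islands) and by at least 20 in 3 (3.57%, against 0.876%). In 80 of the 84 the immunoprecipitate moved the same way as the input. The largest rise in input lay on chromosome 3 from 101206159 to 101206521, where the input rank was 93.9 at 7 weeks, 54.0 in the untreated 23-week pool and 92.8 after DSS. There the immunoprecipitate was 83.9, 39.8 and 86.5, and the ratio moved by 5.79 points. The next 4 rises in input, of 33.3 to 37.6 points, lay on chromosome 6 from 146753103, on chromosome 8 from 73087433 and from 87146933, and on chromosome 17 from 46192124, with ratio differences of -13.4, -1.99, -6.64 and -10.72. The largest fall in input, -32.5 points, lay on chromosome 9 from 105502637 (ratio -8.61). Falls of -30.8 to -26.0 lay on chromosome 14 from 107794079, chromosome 2 from 179222955, chromosome 9 from 110679267 and chromosome 8 from 14894530, with ratio differences of -26.5, -12.0, 2.19 and -11.1.

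Probe length and place on the slide moved with the differences, and their part in the calls was measured only as follows. Probes of 45 bases, 76.3% of those in islands, had a median input difference of 0.20 points, and probes of 46 to 59 bases (20.8%) -5.47, while their median ratio differences were -0.037 and -0.72. With probes of 45 bases only, 27 islands were lower, and 21 of the original 27 were called again, while 9 were higher, and 4 of the 13 were called again. Over 16 sectors of the slide the median ratio difference ran from -3.34 points, in a corner, to 1.26. Every sector held probes of the islands that fell (4 to 17) and of those that rose (2 to 7). With each sector centred, 29 were lower and 14 higher, and 24 of the 27 and all 13 were called again.

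The marked islands as a whole differed little in the rank of the ratio, while the rank of their immunoprecipitate was lower after DSS. Among the 3001 islands at or above percentile 75 at 7 weeks, an array outside the comparison, the median difference after DSS was -0.91 points (SD over islands 4.70), and 1969 of them (65.6%, against 51.4% of all islands) were lower. Their median difference was -7.36 points in the immunoprecipitate and -2.57 in the input, against 0.51 and -0.74 over all islands. The median of the ratio was -2.31 with the mean over probes in place of their median and -1.43 with slide sectors centred, and loess within each array turned it to 1.04. With the islands cut into 10 classes by rank at 7 weeks, the median difference lay between -0.02 and 0.73 in the 7 lowest classes and was -1.50, -1.57 and -0.54 in the top 3. In these 3 the immunoprecipitate differed by -4.34, -7.10 and -7.60 points and the input by -0.22, -1.30 and -4.17. Falls of at least 10 points were seen in 176 of 1370 islands (12.8%) in class 8, at 7-week percentiles 62.2 to 77.5, against 5.23% of all islands. They were seen in 23 (1.68%) of the top class. Rises of at least 10 points were seen in 86 (6.28%) of class 7, 58 (4.23%) of class 8 and 2 (0.146%) of the top class, against 2.89% of all islands. The SD of the difference over islands was 6.93, 7.52 and 3.41 points in these classes. The top class lay at 7-week percentiles 87.3 to 99.7, near the end of the scale at 100, which limits its room to rise. How far this limit set its count of rises and its SD was not tested.

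Across all islands, 1112 (8.12%) differed by at least 10 points either way, 716 (5.23%) lower and 396 (2.89%) higher after DSS. This count was 618 (4.51%) between the untreated arrays and 703 (5.13%) between DSS and 7 weeks. Other islands changed rank as far below percentile 75. At any level, 88 islands (0.642%) were lower by at least 20 points after DSS and 32 (0.234%) higher. Of the 88, 60 stood below percentile 75 in the untreated 23-week pool, at a median of 63.1 (37.2 to 74.7), with a median of 60.5 at 7 weeks and 36.2 after DSS. Their immunoprecipitate rank differed by a median of -17.1 points and their input rank by -4.72. Of the 32, 19 stayed below percentile 75 after DSS, with medians of 41.4 at 7 weeks, 42.3 in the untreated 23-week pool and 63.5 after DSS, and median differences of 6.81 points in the immunoprecipitate and -3.20 in the input. The largest rise of all islands, 37.9 points, was among these 19. Islands of 3 probes made up 17 of the 60 and 4 of the 19.

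Islands near a called one moved the same way more often than islands in general, as a count without a test. Of the 27 islands that fell, 16 had another island within 30000 bp. The 31 such neighbours that were not themselves called differed by a median of -1.92 points (-17.7 to 8.07). Of these, 23 were lower, while 51.4% of all islands and 65.6% of those marked at 7 weeks were lower. A difference of -10 or below was seen in 7 (22.6%, against 5.23% of all islands). Of the 31, 17 stood at or above percentile 75 in at least 1 of the 2 compared pools, and the counts were not matched for level. The 18 neighbours of islands that rose, again those not themselves called, had a median of 5.63 points (-4.40 to 19.2). Of these 18, 14 were higher, while 51.4% of all islands were lower, and 10 stood at or above percentile 75 in at least 1 of the 2 compared pools. The 14 include every uncalled island of the stretch on chromosome 2. The 3 at 10 or above (16.7%, against 2.89% of all islands) were all in the stretch on chromosome 2. The islands that fell had a median of 5 probes and 625 bp, against 6 probes and 669 bp for the 3110 other islands at or above percentile 75 in the untreated 23-week pool.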

How the data were processed

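H3K27me3 was profiled on 3 two-colour CpG island arrays, 1 for each group, of which the 2 from 23-week-old mice are compared. The intensities deposited for each array came from Agilent Feature Extraction (10.7.3.1 per the file headers, 9.1 per the submitters' processing notes). Background was subtracted and each dye scaled by 1 linear factor, per the file headers. Deposited log10 ratios matched that of the processed intensities (immunoprecipitate over input) within 0.001, except at 2 probes of the untreated 23-week array and 1 of the DSS array. For the deposited table of linear ratios, used as an alternative, the authors' steps are not stated in the labels or headers. Neither is the genome build of the probe positions.

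Of 94499 autosomal probes, 583 with an outlier flag and 14 whose input was not well above background were left out, which kept 93902. The log2 ratio of each kept probe was ranked within its array, from 0 to 100. Neighbouring probes whose starts lay at most 500 bp apart formed an island where there were at least 3. An island's level is the median percentile of its probes. Its difference is the median of its probes' own differences and so need not equal the difference of its levels. The members, lists, rule and thresholds were chosen with earlier results of these data known. The rule was also run on simulated data, whose settings and outcome are not given here. No conclusion is drawn from that run about how often the rule calls islands between arrays that differ as these do. Islands were named by a fixed rule: the 15 called in each direction with the largest difference and at least 4 probes, and the 5 with the largest input difference in each direction. The gene lists were not used, because no gene is given for a probe. Alternatives changed the filters, island rule, thresholds, background correction (normexp, offset 50), within-array normalisation (loess) and source of ratios. Software was Python 3.11.15, pandas 2.3.3, R 4.3.3 and limma 3.58.1. With 1 array per group there is no p-value, and the number of arrays limits the precision.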

Additional observations from a re-analysis of the deposited data

Results flagged for a closer look

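Among probes outside the comparison of islands, some were higher after DSS by at least 20 points and at or above percentile 75, set against the ranks of the autosomal probes. This held for 5 of 430 kept probes without a position (1.16%) and for 29 of 2650 probes of chromosome X (1.09%), against 825 of 92368 autosomal probes in islands (0.893%). The opposite was a level at or above percentile 75 in untreated mice at 23 weeks and a fall of at least 20 points after DSS. It held for 5 (1.16%) and 32 (1.21%) of these probes and for 666 (0.721%) of the autosomal ones. With 1 array per group, whether these shares differ was not tested. Of 50 probes on unplaced sequence none met either condition.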

How the results depend on the processing

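Alternatives were run 1 at a time. A threshold of 15 points gave 46 islands lower and 30 higher, and 25 points gave 16 and 8. At least 5 probes left 8 higher. Loess within each array gave 13 lower and 23 higher and a median difference of 1.04 for islands marked at 7 weeks. The cause was not tested. Log2 ratios divided by the interquartile range gave 0 and 0 at a difference of 1. The islands ran from -1.08 to 0.82 on that scale, and the 3 at -1 or below were under percentile 75 in the untreated 23-week pool. The median was -2.31 with the mean over probes and -1.43 with slide sectors centred. The counts stayed within 1.5 times under the other filters, joining distances and the mean over probes, and with normexp (32 and 15), the deposited ratio table (22 and 15) and chromosome X included (28 and 14). The difference kept its sign in all 27 and all 13 islands under the mean, normexp, loess, the deposited table and centred slide sectors. Centred sectors were added after the data were seen, as was the setting of 45 bases. The islands were chosen on the same arrays, so a kept sign is not an independent check. Under these 5 settings 3 of the 27 and 4 of the 13 were called each time. Among them were the falls on chromosome 5 at 147584860 and chromosome 11 at 102896187 and the rise on chromosome 4. Under loess the falls on chromosome 2 at 55252582 and chromosome 17 at 67908719 shrank to -1.86 and -6.75 points. The levels of both these islands were higher after DSS under loess, while those of the other islands called lower were lower. Ranks from the background-subtracted signal again gave 21 falls and 4 rises with at least 10 points in the immunoprecipitate and under 10 in the input. No paired analysis was possible because each group had 1 array.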
